A study of Mus musculus with 2 samples.

Results

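The VEGF and PDGF genes described here are 10 of the 31053 genes listed for the embryonic mouse genital tubercle, the outgrowth from which penis and clitoris develop. They are 5 ligand genes (Vegfa, Vegfc, Pdgfa, Pdgfb and Pdgfc) and 5 receptor genes (Kdr, Flt1, Flt4, Pdgfra and Pdgfrb), taken by symbol, and all 10 were found. Their transcripts were counted in droplet-based single-cell RNA-seq libraries from a male pool and a female pool of wild-type C57BL/6 embryos at embryonic day 14.5 (Theiler stage 22). Each pool held tubercles of 3 embryos chosen from 2 litters, kept on ice for 2 hours during sex genotyping and digested with collagenase XI. With 1 library per sex no difference has a replicate check, no p-value is given, and each 95% interval covers counting error only.

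VEGF ligands act on receptor tyrosine kinases that are best known from blood and lymphatic endothelium. VEGF-A binds KDR (VEGFR2), the main signalling receptor of growing vessels, and FLT1 (VEGFR1), which also acts as a decoy, while VEGF-C binds FLT4 (VEGFR3), a receptor of lymphatic and sprouting endothelium. PDGF ligands act mostly on mesenchyme: PDGF-A and PDGF-C bind PDGFRα, a receptor of connective tissue precursors, and PDGF-B from endothelium recruits mural cells through PDGFRβ.

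The promoters of 3 receptor genes are shown because they stand for the 2 receptor patterns that follow: Kdr and Flt1 were high in endothelium-like cells, and Pdgfra, which lies on the same chromosome as Kdr with a gap of 734611 bp between the genes, was high in mesenchyme-like cells. Each line gives the 250 bases upstream of the RefSeq start, 5′ to 3′ on the gene's strand, in build GRCm38.p6, at chr5:75978456-75978705 (minus strand) for Kdr, chr5:147726012-147726261 (minus strand) for Flt1 and chr5:75152001-75152250 (plus strand) for Pdgfra. Capitals mark GGAA on either strand (TTCC when read on the printed strand), the core letters bound by ETS factors.
Kdr: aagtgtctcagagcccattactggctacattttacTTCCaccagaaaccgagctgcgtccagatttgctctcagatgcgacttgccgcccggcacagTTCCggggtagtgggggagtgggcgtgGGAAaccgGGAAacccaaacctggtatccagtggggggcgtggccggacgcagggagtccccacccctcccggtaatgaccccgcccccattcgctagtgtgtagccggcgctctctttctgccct
Flt1: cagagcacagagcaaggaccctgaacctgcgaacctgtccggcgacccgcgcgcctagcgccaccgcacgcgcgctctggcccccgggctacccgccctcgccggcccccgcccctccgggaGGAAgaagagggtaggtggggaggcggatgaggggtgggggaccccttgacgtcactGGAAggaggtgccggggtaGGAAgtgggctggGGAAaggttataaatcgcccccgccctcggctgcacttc
Pdgfra: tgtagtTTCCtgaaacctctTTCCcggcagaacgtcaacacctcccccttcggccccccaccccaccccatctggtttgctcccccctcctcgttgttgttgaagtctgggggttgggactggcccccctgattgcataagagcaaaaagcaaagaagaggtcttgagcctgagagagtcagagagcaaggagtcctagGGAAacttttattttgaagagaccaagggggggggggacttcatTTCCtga
Each of the 3 windows held 4 GGAA matches, and 93.45% of all 32851 promoter windows of this length held at least 1, with a median of 3 matches. GGGCGG, a GC box, was searched on both strands too and had 2 matches in the Kdr window, 3 in the Flt1 window and 0 in the Pdgfra window; 32.74% of all windows held it. TATAA, on either strand, had 2 matches in the Flt1 window, 1 on each strand of the same overlapping letters, and 0 in the windows of Kdr and Pdgfra, with 22.78% of all windows holding it. The matches are letters in a window and were not tested as binding sites. The windows were 61.6%, 70.4% and 54.4% GC for Kdr, Flt1 and Pdgfra, where the median of all entries is 52.4%. Sequences are from RefSeq, where 8 of the 10 genes had a promoter entry; Pdgfb and Pdgfrb are named only.

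In the annotated genome (GENCODE M21 on GRCm38, mm10), Kdr spans chr5:75932827-75978458 on the minus strand, Flt1 chr5:147561604-147726011 on the minus strand and Flt4 chr11:49609263-49652739 on the plus strand. Pdgfra spans chr5:75152292-75198215 and Pdgfrb chr18:61045150-61085061, both on the plus strand. Of the ligands, Vegfa lies at chr17:46016993-46032369 and Vegfc at chr8:54077606-54187096, on the minus and the plus strand. Pdgfa lies at chr5:138976014-138997370 and Pdgfb at chr15:79995874-80014977, both on the minus strand, and Pdgfc at chr3:81036416-81214040 on the plus strand. Reads at the 3′ end of a transcript do not tell its isoforms apart, so membrane-bound and soluble Flt1 or the Vegfa splice forms are not resolved.

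The male library held 17254 cells and the female library 18711 cells with at least 2000 UMIs, 500 genes and at most 10% mitochondrial UMIs, at medians of 5169.5 and 5242 UMIs. Of the barcodes kept, 82 were shared by both libraries, against 47.5 expected by chance. Clustering without these genes gave 8 classes, named with "-like" from marker genes. Mesenchyme-like cells numbered 16382 and 18119, endothelium-like cells 190 and 119, epithelium-like cells 179 and 107, immune-like cells 91 and 53, erythroid-like cells 106 and 183, and glia and neural crest-like cells 51 and 63 in the male and the female library. Skeletal muscle-like cells numbered 46 and 66 and smooth muscle-like cells 209 and 1, so these classes are given as values only, and the smooth muscle-like cluster, found in the male library, may be that library and not a type. Levels are UMIs per 1000000 UMIs of the class (CPM), with the male value first. A class is counted as above mesenchyme-like cells where its level is at least 4-fold theirs in both libraries with at least 20 summed UMIs. Male smooth muscle-like cells had 3186 CPM of the 8 smooth muscle markers, against 104 CPM in male mesenchyme-like cells. They also had 7157 CPM of the 9 mesenchyme markers, against 3558 CPM, so they carry mesenchyme markers in full.

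The VEGF receptor genes marked the endothelium-like cells, although they took no part in clustering or naming them. Kdr stood at 458 CPM (435 to 481, 1539 UMIs) in male endothelium-like cells, against 0.81 CPM in male mesenchyme-like cells, a 568-fold difference. In the female library Kdr stood at 520.3 CPM (489 to 554, 994 UMIs) in endothelium-like cells, against 0.73 CPM in mesenchyme-like cells, a 713-fold difference. The intervals of the log2 ratio ran from 8.83 to 9.49 in the male and from 9.16 to 9.81 in the female library, so the classes lay far apart in both.

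Flt1 had 451 and 508 CPM in male and female endothelium-like cells, against 1.197 and 1.284 CPM in mesenchyme-like cells, ratios of 377 and 396. Flt4 had 75.8 and 72.8 CPM in endothelium-like cells, against 0.091 and 0.092 CPM in mesenchyme-like cells, on 255 and 139 endothelial UMIs and only 9 and 11 mesenchymal ones. Endothelium-like cells made up 1.10% and 0.636% of the kept cells and held 92.7% and 92.0% of all Kdr UMIs, 89.6% and 85.3% of Flt1 UMIs and 95.5% and 92.1% of Flt4 UMIs.

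The classes differ in depth, with medians of 12721.5 and 10423 UMIs per endothelium-like cell, against 5076 and 5182 per mesenchyme-like cell. After each cell was thinned to 2000 UMIs, 53.7% and 63.9% of endothelium-like cells had a Kdr UMI, against 0.177% and 0.110% of mesenchyme-like cells. Before thinning these shares were 92.6% and 93.3% of endothelium-like cells, against 0.458% and 0.408% of mesenchyme-like cells. In erythroid-like cells, which should lack the receptor, 0 of 106 and 0 of 183 cells had a Kdr UMI, where 3 counts, taken as the limit that a count of 0 allows, would be 2.83% and 1.64%. Thinned shares for Flt1 were 52.6% and 59.7% of endothelium-like cells, and for Flt4 13.2% and 10.9%. Kdr and Flt1 were both detected in 30.0% (23.6 to 37.1) of thinned male endothelium-like cells and 38.7% (29.9 to 48.0) of female ones, where the product of the separate shares is 28.3% and 38.1%. The observed shares thus held the product within their intervals.

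All 12 endothelial markers, from which the class was named, had UMIs, at a sum of 5935 and 5558 CPM. The cells also carried RNA of all 9 mesenchyme markers, at 285 and 553 CPM, while 6 and 5 of 9 pericyte markers summed to 17.5 and 16.8 CPM. Of 6 megakaryocyte markers, 6 and 4 had UMIs, at 659 and 25.1 CPM, and in the male library 2102 of the 2130 such UMIs of the sub-cluster led by megakaryocyte genes such as Pf4 and Ppbp lay in 2 cells. Of 5 lymphatic markers 3 had UMIs in each library, Ccl21a was at 0 in both, and no sub-cluster could be named lymphatic. Flt4 was present in all 4 sub-clusters of the class, the 1 led by mesenchyme genes and the 1 led by megakaryocyte genes included, at 33.0 to 85.8 CPM in the male and 48.4 to 82.9 CPM in the female library.

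**Figure D1:**
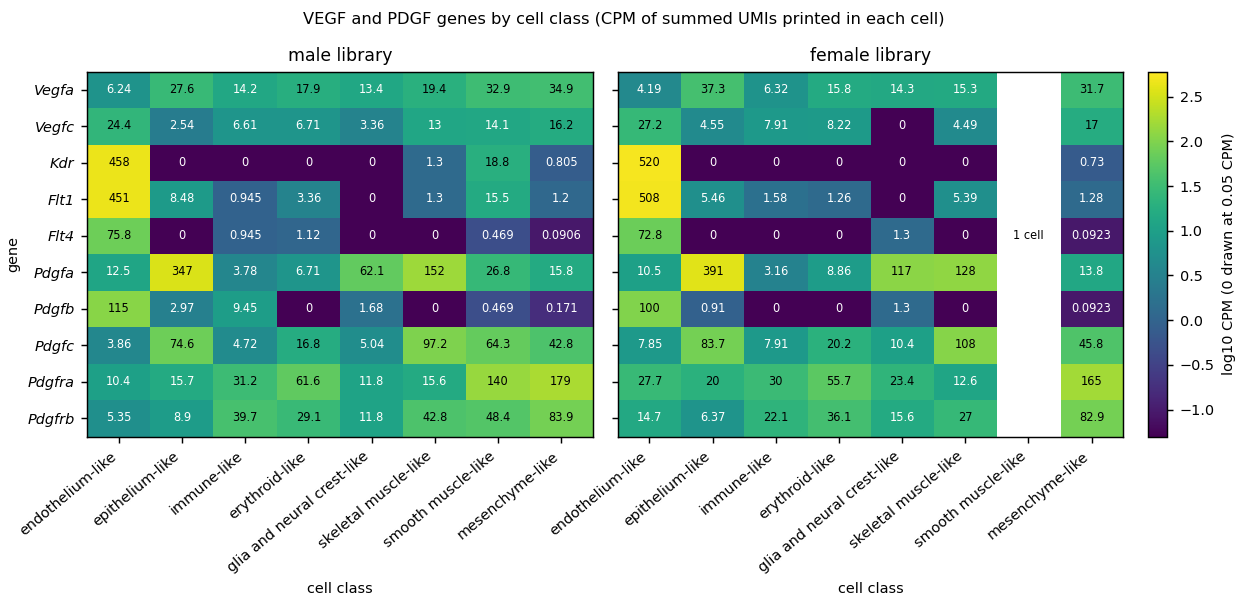
Heat map of the level of each of the 10 genes (rows, in CPM on a log colour scale) by cell class (columns, male and female library side by side, mesenchyme-like last). The 3 VEGF receptor genes and Pdgfb are brightest (highest) in endothelium-like cells, Pdgfa in epithelium-like cells, and Pdgfra and Pdgfrb in mesenchyme-like cells. The female smooth muscle-like class has 1 cell and is left blank.

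Outside endothelium, VEGF receptor UMIs were few. Kdr was at 0 in the epithelium-like, immune-like, erythroid-like and glia and neural crest-like classes of both libraries. Flt1 reached the 4-fold mark in epithelium-like cells, with 8.48 CPM (5.18 to 13.1) and 5.46 CPM (2.00 to 11.9), against 1.197 and 1.284 CPM in mesenchyme-like cells. These levels rest on 20 UMIs in 11 male cells and 6 UMIs in 4 female cells, which had 0 UMIs of Cdh5 and Pecam1, the endothelial junction genes, and 10 and 1 UMIs of the 12 endothelial markers in all. After thinning 1 and 2 epithelium-like cells were left with a Flt1 UMI, a level near that of 1 UMI from which no change can be read, and the male log2 ratio was then 0.90, against 2.82 unthinned. Barcodes with at most 100 UMIs, which hold mostly free RNA, had 13.7 and 8.33 CPM of Flt1. The part of free RNA in the epithelium-like levels was not tested.

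Among the 209 male smooth muscle-like cells, 40 Kdr UMIs lay in 16 cells and 33 Flt1 UMIs in 15 cells, and 1 cell held both; these cells were looked at after their values were seen. The class levels were 18.8 CPM (13.4 to 25.6) for Kdr and 15.5 CPM (10.7 to 21.8) for Flt1, and the highest cell had 9 UMIs of either gene. Cdh5 and Pecam1 had 1 UMI each in the whole class, against 3141 and 1704 in male endothelium-like cells. Per 100 endothelial-marker UMIs there were 37.7 Kdr UMIs in smooth muscle-like cells, against 7.71 in male endothelium-like cells. Male barcodes with at most 100 UMIs had 14.1 CPM of Kdr and 13.7 CPM of Flt1. The part of free RNA in the class levels was not tested.

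The cells with Kdr and those with Flt1 also differed in their PDGF receptors. Of the 15 cells with Kdr and no Flt1, 13 had a Pdgfra UMI, 4 a Pdgfrb UMI, 2 a UMI of Notch3, a mural cell receptor, and 0 a UMI of Rgs5, a pericyte gene. Of the 14 cells with Flt1 and no Kdr, 3 had a Pdgfra UMI, 13 a Pdgfrb UMI, 7 a Notch3 UMI and 6 an Rgs5 UMI. In the class as a whole, 136 cells had a Pdgfra UMI and 70 a Pdgfrb UMI. The cells share 1 library and were picked by their counts, so these numbers are a description. Without the cells with the highest doublet scores, 176 cells kept 36 Kdr UMIs in 15 cells and 33 Flt1 UMIs in 15 cells.

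**Figure D2:**
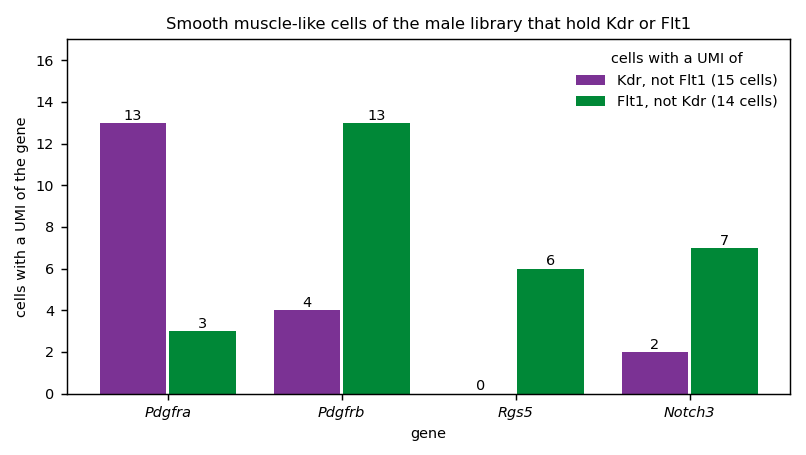
Number of male smooth muscle-like cells (y axis) with at least 1 UMI of Pdgfra, Pdgfrb, Rgs5 or Notch3, among the 15 cells with Kdr and no Flt1 and the 14 cells with Flt1 and no Kdr. The Kdr bars are tall for Pdgfra (13 cells) and the Flt1 bars for Pdgfrb (13 cells).

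Vegfa, the main attractant of growing vessels, was low where its receptors were high. It had 6.24 CPM (3.86 to 9.54) and 4.19 CPM (1.81 to 8.25) in endothelium-like cells, against 34.9 CPM (33.7 to 36.0) and 31.7 CPM (30.7 to 32.8) in mesenchyme-like cells. Epithelium-like cells had 27.6 CPM (21.3 to 35.1) and 37.3 CPM (26.8 to 50.6), so epithelium and mesenchyme could not be told apart in either library. Male smooth muscle-like cells, at 32.9 CPM (25.6 to 41.5), also overlapped mesenchyme. Mesenchyme-like cells, 94.95% and 96.8% of cells, held 94.3% and 97.3% of Vegfa UMIs. After thinning, 6.68% and 5.68% of mesenchyme-like cells had a Vegfa UMI, while 3.77% (1.04 to 9.38) and 0.546% (0.0138 to 3.01) of erythroid-like cells did. The male erythroid-like interval includes the mesenchymal share. Haemoglobin and mitochondrial UMIs lower the CPM and thinned shares of erythroid-like cells. Without these UMIs Vegfa had 41.1 and 35.1 CPM in erythroid-like cells, against 37.4 and 34.1 CPM in mesenchyme-like cells. On that scale the mesenchymal level did not stand above the erythroid-like one in either library. The part of free mesenchymal RNA in the erythroid-like value was not tested. Barcodes with at most 100 UMIs, which hold mostly free RNA, had 59.4 and 52.5 CPM of Vegfa.

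Vegfc, the ligand of lymphatic and sprouting endothelium, was found on both sides. It had 24.4 CPM (19.4 to 30.3) and 27.2 CPM (20.3 to 35.7) in endothelium-like cells, against 16.2 CPM (15.4 to 16.98) and 17 CPM (16.3 to 17.8) in mesenchyme-like cells, ratios of 1.51 and 1.60. Within endothelium it was concentrated in the arterial-like sub-cluster of 33 male and 20 female cells, in which all 6 arterial markers had UMIs. Vegfc stood there at 86.1 CPM (62.1 to 116) and 65.6 CPM (38.9 to 104), while the other 3 sub-clusters had 6.06 to 17.3 CPM in the male and 10.2 to 24.6 CPM in the female library. The arterial-like interval lay above all the others in the male library; in the female library it overlapped that of 1 other sub-cluster, which had 24.6 CPM (12.3 to 44.1). Epithelium-like cells were low in Vegfc, with 2.54 and 4.55 CPM. With haemoglobin and mitochondrial UMIs left out, erythroid-like cells had 15.4 and 18.2 CPM of Vegfc, on 6 and 13 UMIs. Mesenchyme-like cells then had 17.4 and 18.3 CPM.

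Pdgfb was an endothelial ligand here. It had 115 CPM (104 to 127) and 99.98 CPM (86.3 to 115) in endothelium-like cells, against 0.17 and 0.092 CPM in mesenchyme-like cells, where 17 and 11 UMIs were counted. Endothelium-like cells held 91.5% and 93.6% of its UMIs. Without the sub-cluster led by megakaryocyte genes the log2 ratio over mesenchyme-like cells was 9.39 and 10.12, and with it 9.39 and 10.08. The arterial-like sub-cluster was highest, at 199 CPM (161 to 243) and 189.5 CPM (141.5 to 248.5), and its intervals lay above those of the other sub-clusters, which had 74.2 to 115 CPM and 33.1 to 107 CPM. Epithelium-like and glia and neural crest-like cells held at most 7 Pdgfb UMIs per library, and immune-like cells 10 and 0.

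Pdgfa, the PDGFRα ligand of many epithelia, was highest in epithelium-like cells. These had 347 CPM (324 to 372) and 391 CPM (355 to 430.0), against 15.8 CPM (15.03 to 16.6) and 13.8 CPM (13.2 to 14.5) in mesenchyme-like cells, ratios of 21.98 and 28.3. After thinning, 41.9% and 41.1% of epithelium-like cells had a Pdgfa UMI, while 0 of 106 male erythroid-like cells, with the same limit of 2.83%, and 2.19% of female ones did. With 1.04% and 0.572% of the cells, the epithelium-like class held 30.9% and 18.3% of all Pdgfa UMIs, and the mesenchyme-like class 59.2% and 70.2%.

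Skeletal muscle-like cells came next in Pdgfa, at 152 CPM (125 to 182) and 129 CPM (108 to 151), followed by glia and neural crest-like cells at 62.2 CPM (43.8 to 85.7) and 117 CPM (93.9 to 144). These 2 classes were apart in the male library and overlapped in the female library. Within epithelium, the urethral-like sub-cluster, which held all 6 urethral markers including Shh, had 173.5 CPM (139.7 to 213) and 276 CPM (207 to 360). A sub-cluster led by Hbb-bs and cell cycle genes such as Nusap1 and Top2a had 444.5 CPM (404 to 487) and 543 CPM (483 to 607), above the urethral-like cells in both libraries. Another of 30 and 26 cells, led by Hbb-y and Hba-x, had 210.1 and 271 CPM on 22 and 23 UMIs. The smallest sub-cluster, of 14 cells in each library and led by Gabrp, Tac2 and Krt17, had 42.3 and 84.9 CPM on 4 and 11 UMIs. The remaining sub-cluster, of 52 and 19 cells and led by Stmn2, is not given here, so the sub-clusters are not ranked.

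Pdgfc, the other PDGFRα ligand, was spread more widely. Epithelium-like cells had 74.6 CPM (64.0 to 86.5) and 83.7 CPM (67.5 to 103), against 42.8 CPM (41.6 to 44.1) and 45.8 CPM (44.6 to 47.0) in mesenchyme-like cells, ratios of 1.74 and 1.83 whose intervals stayed above 1. Skeletal muscle-like cells had 97.2 and 108 CPM and male smooth muscle-like cells 64.3 CPM. Endothelium-like cells had 3.86 and 7.85 CPM. With haemoglobin and mitochondrial UMIs left out, erythroid-like cells had 38.5 and 44.9 CPM of Pdgfc, on 15 and 32 UMIs. Mesenchyme-like cells then had 46.0 and 49.3 CPM. Among the epithelial sub-clusters, the one led by Hbb-bs and cell cycle genes had 92.4 CPM (74.7 to 113) and 107 CPM (81.5 to 137) of Pdgfc. The urethral-like one had 36.2 CPM (21.8 to 56.6) and 51.0 CPM (24.5 to 93.9), apart from it in the male library and overlapping it in the female library.

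Pdgfra was the receptor of the mesenchyme. It had 179 CPM (176 to 182) and 165 CPM (163 to 167) in mesenchyme-like cells, 17779 and 19673 UMIs, which were 97.4% and 98.9% of its UMIs. Male smooth muscle-like cells, which had 7157 CPM of the 9 mesenchyme markers, followed with 139.9 CPM (124 to 157). Erythroid-like cells had 61.6 CPM (46.4 to 80.1) and 55.7 CPM (44.7 to 68.6), together with 1211 and 1401 CPM of the 9 mesenchyme markers, which stood at 3558 and 3687 CPM in mesenchyme-like cells. Without haemoglobin and mitochondrial UMIs, Pdgfra had 141 and 123.5 CPM in erythroid-like cells, against 192 and 178 CPM in mesenchyme-like cells. The part of free mesenchymal RNA in the erythroid-like value was not tested. After thinning, 28.8% and 26.3% of mesenchyme-like cells had a Pdgfra UMI, while 13.2% (7.41 to 21.2) and 12.0% (7.69 to 17.6) of erythroid-like cells did; unthinned, the mesenchymal shares were 57.3% and 55.7%, at median depths of 5076 and 5182 UMIs, and the erythroid-like ones 31.1% and 33.3%, at 7980.5 and 8256 UMIs.

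Endothelium-like cells had 10.4 and 27.7 CPM of Pdgfra, and most of it sat in 1 sub-cluster. That sub-cluster, led by mesenchyme genes such as Vcan and Prrx1, held 21 of the 35 male and 38 of the 53 female UMIs and had 1446 and 2008 CPM of mesenchyme markers. The other sub-clusters had 113 to 222 CPM of these markers.

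Pdgfrb, the receptor through which PDGF-B acts on mural cells, was likewise highest in mesenchyme-like cells, at 83.9 CPM (82.1 to 85.8) and 82.9 CPM (81.3 to 84.6). Male smooth muscle-like cells had 48.4 CPM (39.5 to 58.6), skeletal muscle-like cells 42.8 CPM (29.4 to 60.1) and 27.0 CPM (18.2 to 38.5), and immune-like cells 39.7 CPM (28.6 to 53.6) and 22.1 CPM (12.1 to 37.1); these 3 overlapped in the male library. Erythroid-like cells had 29.1 CPM (19.0 to 42.6) and 36.1 CPM (27.3 to 46.7), so immune-like and skeletal muscle-like cells were not apart above them in either library. Without haemoglobin and mitochondrial UMIs, erythroid-like cells had 66.8 and 80.0 CPM, immune-like cells 42.5 and 23.8 CPM and skeletal muscle-like cells 45.1 and 28.55 CPM. On that scale mesenchyme-like cells had 90.1 and 89.2 CPM, and the erythroid-like values rest on 26 and 57 UMIs. The part of free mesenchymal RNA in the erythroid-like values was not tested. In skeletal muscle-like cells, 18 of 33 male and 12 of 30 female Pdgfrb UMIs lay in 3 and 2 cells with at least 3 of 9 pericyte markers. No class was named pericyte. Of the 61 male and 40 female cells with at least 3 pericyte markers, 46 and 35 were in the mesenchyme-like class. That class made up 94.95% and 96.8% of all cells.

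Within the immune-like class, the mast cell-like sub-cluster of 23 and 11 cells, led by Cpa3 and Cma1, had 74.1 CPM (49.2 to 107) and 49.1 CPM (23.6 to 90.3) of Pdgfrb on 28 and 10 UMIs. A sub-cluster of 32 and 21 cells led by Ifi27l2a, F13a1 and Lyve1 had 1 and 0 Pdgfrb UMIs. Another, of 21 and 13 cells and led by Meg3, Msx1 and Col1a2, had 11 and 4 Pdgfrb UMIs.

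The balance of the PDGF receptors was compared by Pdgfra UMIs per Pdgfrb UMI, a quotient whose absolute value depends on how each gene is captured. It was 2.13 (2.08 to 2.19) and 1.99 (1.94 to 2.04) in mesenchyme-like cells. Erythroid-like cells had 2.12 (1.30 to 3.51) and 1.54 (1.09 to 2.19), which includes the mesenchymal quotient in both libraries. Skeletal muscle-like cells had 0.364 (0.171 to 0.723) and 0.467 (0.229 to 0.908), on 12 and 14 Pdgfra UMIs, and lay below it. The 3 male and 2 female skeletal muscle-like cells with at least 3 pericyte markers held 18 and 12 of the 33 and 30 Pdgfrb UMIs. They held only 1 and 0 of the 12 and 14 Pdgfra UMIs, so they lower the quotient of the class. The quotient without these cells was not computed. Mast cell-like cells had 0.393 (0.177 to 0.814) and 0.300 (0.0531 to 1.17) and lay below the mesenchymal quotient as well.

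In thinned mesenchyme-like cells Pdgfra and Pdgfrb were detected together about as often as separate shares give. Both were seen in 4.603% (4.29 to 4.94) of male and 3.98% (3.70 to 4.27) of female cells, where the product of the shares is 4.50% and 4.02%. The shares lie within counting error of the products, with quotients of 1.022 and 0.9899. With few UMIs per cell this says little about expression of both genes in the same cell. By domain the quotient ran from 0.868 to 1.214 in the male and from 0.914 to 1.115 in the female library.

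Of 10 measured genes, 4 passed the 4-fold mark in endothelium-like over mesenchyme-like cells (Kdr, Flt1, Flt4 and Pdgfb), where 5.21% of 16086 genes did. The median log2 ratio of the 10 genes was 0.13, and that of all genes -0.01. In epithelium-like cells 2 of 10 did (Pdgfa and Flt1), where 2.9% of genes did. In immune-like, erythroid-like and glia and neural crest-like cells 0 of 10 did, where 4.25%, 0.658% and 1.96% of genes did. Pdgfa in glia and neural crest-like cells was just short of the mark in the male library, at 3.93-fold, and past it in the female library, at 8.46-fold.

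Of 17 other pathway genes, 7 passed the same mark in endothelium-like cells, with a median log2 ratio of 0.90 over the 17. They were Nrp1, a co-receptor of VEGF-A, and Esm1, Apln, Aplnr, Dll4, Plau and Ptprb, genes of sprouting or remodelling vessels. Nrp1 had 219 and 248 CPM in endothelium-like cells, against 30.2 and 37.1 CPM in mesenchyme-like cells, and Dll4, the Notch ligand of tip cells, 77.9 and 78.0 CPM, against 0.070 and 0.13 CPM. Nrp2, the co-receptor of VEGF-C, had 107.6 and 107.8 CPM, against 43.5 and 36.8 CPM, and did not reach 4-fold. Vegfb, a ligand of FLT1, was lower in endothelium-like cells, at 15.5 and 27.2 CPM, against 79.7 and 78.9 CPM in mesenchyme-like cells. None of 16 measured pathway genes passed in epithelium-like cells, and 1 of 16 did in glia and neural crest-like cells, Nrp1, with 192 and 186 CPM.

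Mesenchyme-like cells were split into 16 clusters, 11 of which were joined into 8 domains named from fixed marker lists, whose genes are not all among the leading genes of their clusters, while the 5 others, 24.1% and 26.7% of mesenchyme-like cells, had no domain. The score a cluster needed for a domain was set after the scores were seen. The distal Msx2 clusters were led by cell cycle or histone genes. The range of a gene is its level in the highest domain over that in the lowest, with both libraries summed.

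Of the 8 genes with at least 100 UMIs over the domains, 6 ranged at least 2-fold, where 38.6% of 12981 genes did. The median range of the 8 genes was 2.73, and that of all genes 1.69. Vegfa and Pdgfrb were the 2 that fell short of 2-fold, with ranges of 1.53 and 1.50. Kdr and Flt1, among the 6, had only 111 and 181 UMIs over the domains. Their lowest domains held 7 and 15 UMIs, so counting error can widen their ranges and raise the count and the median.

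Vegfc was highest in the domain named for Sim1, Tbx15 and Agtr2, with 27.0 CPM (23.9 to 30.4) and 25.1 CPM (22.7 to 27.7). It was lowest in the Foxd1, Sall3 and Lbx2 domain, with 5.39 CPM (4.26 to 6.72) and 7.03 CPM (5.83 to 8.41), a 4.12-fold range. The Aldh1a2 and Tcf21 domain was low too, at 8.39 and 7.15 CPM. The other 5 domains had 15.8 to 24.3 CPM, so the 2 low domains stood apart from the rest in both libraries.

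Pdgfa in mesenchyme was highest in the distal Dlx2 and Runx1 domain, at 29.9 CPM (26.3 to 34.0) and 31.8 CPM (27.8 to 36.2). The Aldh1a2 and Tcf21 domain followed at 22.3 CPM (18.6 to 26.4) and 22.9 CPM (18.5 to 27.9); its interval overlapped that of the distal domain slightly in both libraries. The Rprm, Pcdh10 and Spock3 domain was lowest, at 11.0 and 9.98 CPM, and the range was 2.95. The highest domain stayed far below the 347 and 391 CPM of epithelium-like cells.

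Pdgfc was led by different domains in the libraries. The Ogn, Foxf1 and Npnt domain had 56.4 CPM (49.2 to 64.4) and 76.1 CPM (68.7 to 84.1), and the Sim1 domain 66.5 CPM (61.6 to 71.7) and 55.2 CPM (51.6 to 58.9). Their intervals overlapped in the male library and were apart in the female library. The Scx and Sox9 domain was lowest in both, at 24.5 and 29.5 CPM, giving a range of 2.50. Vegfa was also highest in the Ogn domain, at 44.5 CPM (38.1 to 51.6) and 43.8 CPM (38.2 to 50.01), but the distal Dlx2 and Runx1 domain, at 41.1 and 38.0 CPM, overlapped it.

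Pdgfra ran from the Aldh1a2 and Tcf21 domain down to the Rprm domain. The Aldh1a2 domain had 259 CPM (246 to 272) in the male library, above all others, and 201.5 CPM (188 to 216) in the female library, where the Sim1, Ogn and Foxd1 domains at 206, 204 and 188.5 CPM overlapped it. The Rprm domain was lowest in both, at 102 CPM (94.1 to 111) and 86.9 CPM (80.0 to 94.1), and the distal Msx2 domain next, at 136 and 115 CPM. The range was 2.50.

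Pdgfrb followed another order. It was highest in the Ogn domain, at 103 CPM (93.4 to 114) and 95.4 CPM (87.1 to 104), with the distal Dlx2 and Runx1 domain overlapping it at 96.7 and 92.7 CPM, and lowest in the Foxd1 domain, at 66.6 CPM (62.4 to 70.9) and 65.1 CPM (61.3 to 69.0). The Rprm domain, lowest in Pdgfra, had 88.4 and 79.1 CPM of Pdgfrb and lay between these extremes.

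**Figure D3:**
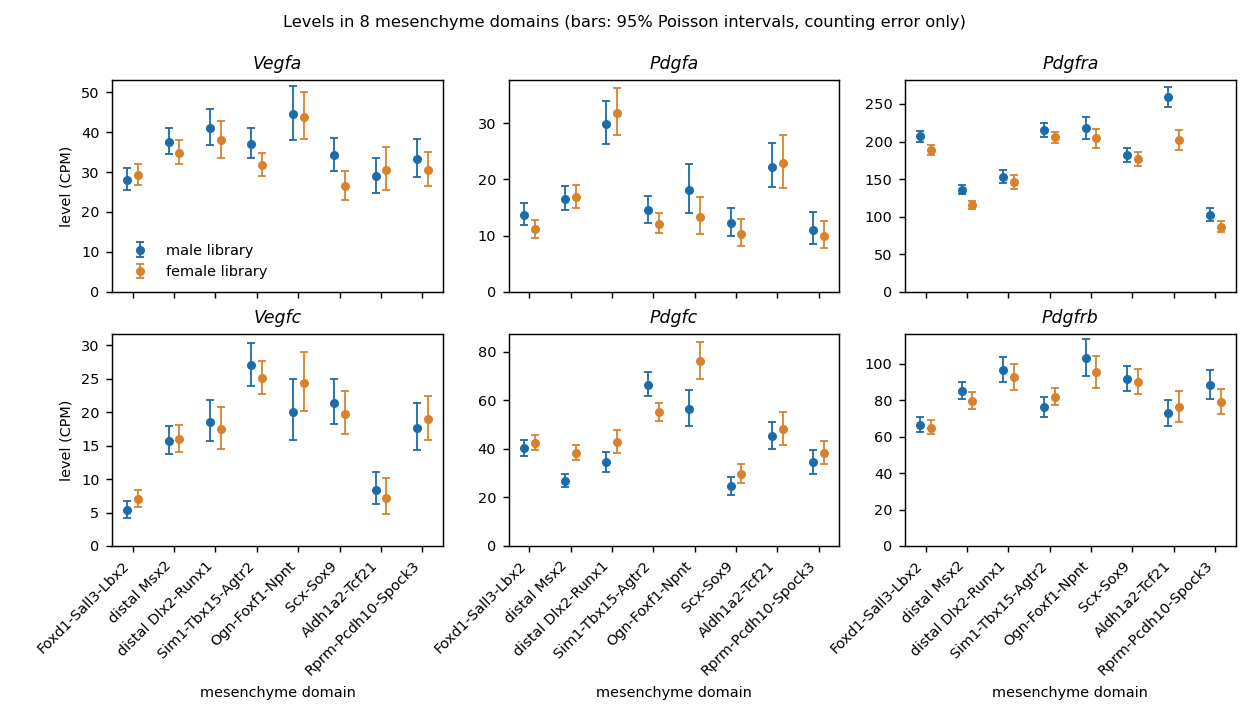
Levels (CPM, y axes from 0) of Vegfa, Pdgfa, Pdgfra, Vegfc, Pdgfc and Pdgfrb in the 8 mesenchyme domains, 1 point per library with its 95% counting interval. Vegfc is low in the Foxd1 and Aldh1a2 domains, Pdgfa is highest in the distal Dlx2 and Runx1 domain, and Pdgfra is lowest in the Rprm domain in both libraries.

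The receptor quotient therefore differed by domain. It was 3.55 (3.19 to 3.96) and 2.64 (2.32 to 3.01) in the Aldh1a2 domain and 3.11 (2.89 to 3.35) and 2.90 (2.71 to 3.104) in the Foxd1 domain. It was 1.16 (1.02 to 1.31) and 1.10 (0.976 to 1.24) in the Rprm domain, the lowest in both libraries. Both distal domains lay between 1.44 and 1.59. The order of the Aldh1a2 and Foxd1 domains was not the same in the libraries, and their intervals overlapped in each.

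**Figure D4:**
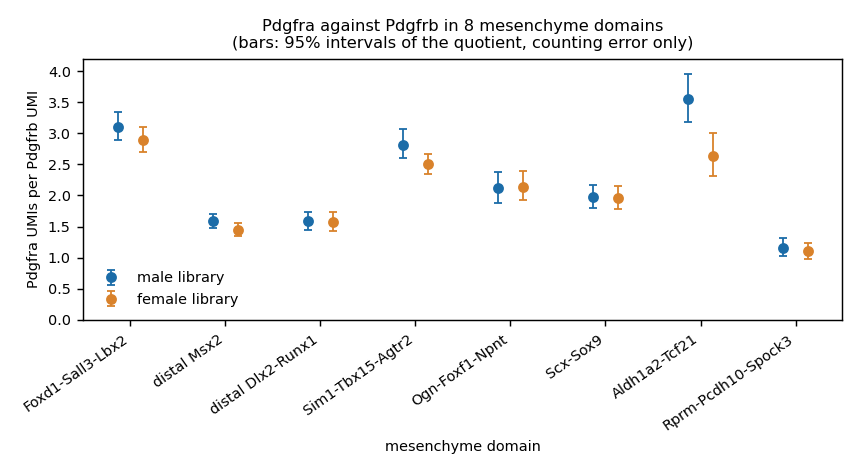
Pdgfra UMIs per Pdgfrb UMI (y axis) in each mesenchyme domain and library, with 95% intervals of the quotient. The Aldh1a2 and Foxd1 domains stand at the high end, between 2.64 and 3.55, and the Rprm domain at the low end, at 1.16 and 1.10.

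VEGF receptor UMIs in mesenchyme-like cells were too few for fine comparisons. Flt1 had 3.59 CPM (2.23 to 5.49) and 4.05 CPM (2.36 to 6.48) in the Aldh1a2 domain on 21 and 17 UMIs, and 0.390 and 0.685 CPM in the Sim1 domain on 4 and 11 UMIs. Cdh5 and Pecam1 gave 9 and 4 UMIs in the male and 3 and 6 in the female cells of the Aldh1a2 domain. Kdr had its highest level in the distal Dlx2 and Runx1 domain, with 1.61 and 1.40 CPM on 13 and 10 UMIs. Flt4 and Pdgfb had 13 and 18 UMIs over the 8 domains in both libraries and are not ranked.

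Of 12 other pathway genes measured over the domains, 10 ranged at least 2-fold, with a median range of 5.30. Vegfd, a ligand of FLT4, had 43.4 and 51.5 CPM in the distal Dlx2 and Runx1 domain and 1.16 CPM over both libraries in the Scx and Sox9 domain, a range of 40.6, and it was among the 10 leading genes of the distal cluster. Nrp1 had 107 and 129 CPM in the Sim1 domain and 14.7 and 13.3 CPM in the Ogn domain. Nrp2 had 96.2 and 67.7 CPM in the Aldh1a2 domain and 20.7 and 14.6 CPM in the Sim1 domain, where Nrp1 was highest. Pdgfrl, a PDGF receptor-like gene, was highest in the Scx and Sox9 domain, at 82.0 and 60.7 CPM, and lowest in the Foxd1 domain, at 6.01 and 4.45 CPM. Ccbe1, which helps mature VEGF-C, was highest in the Scx domain as well, at 4.26 and 4.53 CPM. Pgf and Pdgfd were highest in the Aldh1a2 domain over both libraries, with 22.8 and 15.3 CPM and 13.2 and 9.77 CPM. Plat ranged 8.20-fold, Adamts3 3.16-fold and Apln 2.93-fold, while Vegfb and Furin ranged 1.18 and 1.91-fold.

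In mesenchyme-like cells 0 of 8 genes with at least 100 summed UMIs stood at least 25% higher in one library than in the other, where 8.29% of 13419 genes did, 5.52% higher and 2.76% lower in the male library. Vegfa had 34.9 CPM in male and 31.7 CPM in female cells, a log2 ratio of 0.14 (0.07 to 0.20), Pdgfa a log2 ratio of 0.19 (0.09 to 0.30) and Pdgfra one of 0.12 (0.09 to 0.15). Pdgfc had a log2 ratio of -0.10 (-0.15 to -0.04), which turned to 0.23 under a mitochondrial limit of 5%. The median over all genes was -0.02. For Vegfc, Kdr, Flt1 and Pdgfrb the intervals included 0, which does not show that the libraries are alike. Of 13 other pathway genes, 1 passed the fold, Pdgfd, with 6.59 CPM in male and 4.699 CPM in female cells, a log2 ratio of 0.49 (0.32 to 0.65).

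**Figure D5:**
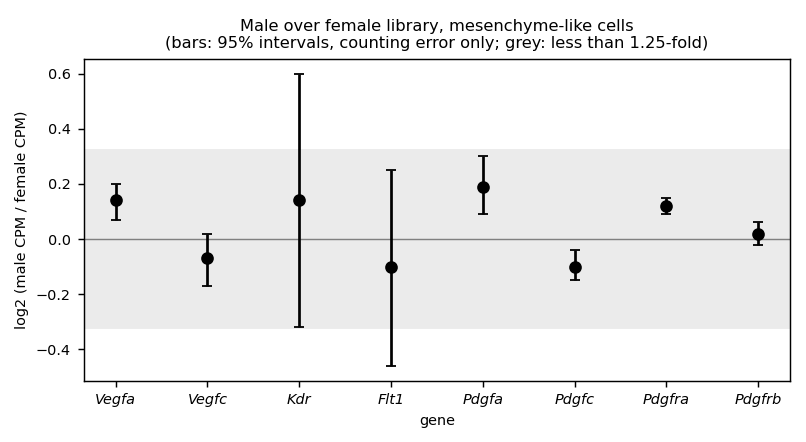
Log2 ratio of the male over the female level (y axis) of 8 genes in mesenchyme-like cells, with 95% counting intervals and differences under 25% in grey. All 8 points lie inside the grey range, and the interval of Kdr, on 80 and 87 UMIs, is the widest.

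In endothelium-like cells 0 of 5 measured genes passed the fold, where 17.3% of genes did, and Kdr and Flt1 had log2 ratios of -0.19 (-0.30 to -0.07) and -0.17 (-0.29 to -0.05). In epithelium-like cells 1 of 3 did, where 22.7% of genes did: Vegfa had 27.6 CPM in male and 37.3 CPM in female cells, a log2 ratio of -0.44 whose interval (-1.02 to 0.16) includes 0. In glia and neural crest-like cells the only measured gene, Pdgfa, passed, with 37 UMIs in male and 90 in female cells and a log2 ratio of -0.91 (-1.50 to -0.34), where 22.6% of genes did. In erythroid-like cells 0 of 1 passed (Pdgfra, log2 ratio 0.14), where 24.6% of genes did, and in immune-like cells, where 19.6% did, no gene of the 10 had enough UMIs.

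Within domains, 6 of 47 pairs of a gene and a domain with at least 100 summed UMIs passed the fold, where 12% of 74791 such pairs over all genes did. Intervals lay above 0 in 7 pairs and below 0 in 3. Pdgfc in the distal Msx2 domain had 26.9 CPM in male and 38.5 CPM in female cells, a log2 ratio of -0.51 (-0.70 to -0.33), and in the Ogn domain a log2 ratio of -0.43 (-0.68 to -0.19). Pdgfra in the Aldh1a2 domain had 259 CPM in male and 201.5 CPM in female cells, a log2 ratio of 0.36 (0.24 to 0.48). Vegfa in the Scx domain had a log2 ratio of 0.37 (0.11 to 0.65). For Pdgfa in the Ogn domain (0.44) and Vegfc in the Foxd1 domain (-0.38) the intervals included 0. Library and sex cannot be told apart here.

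Likeness of pattern was measured as Pearson's r of log2(CPM + 5) over the 21 clusters with at least 50 cells in each library; clusters share libraries and depth, and r is a description. The genes most like Kdr were Gja4, Epas1 and Gpihbp1 (r = 0.997, 0.997 and 0.996), those most like Flt1 Sox7, Rasip1 and Epas1 (0.988, 0.984 and 0.984), and those most like Flt4 Klhl4, Sox17 and Gpihbp1 (0.999, 0.998 and 0.998). Pdgfb was followed most closely by Cd93, Icam2 and Gimap6 (0.991, 0.99 and 0.989). All 4 were far higher in the endothelium-like cluster than in any other, so 1 cluster carries most of these values. Pdgfra was most like Mfap4, Col1a1 and Nfix (0.976, 0.963 and 0.962) and Pdgfrb most like S1pr3, Cdh11 and Clmp (0.964, 0.959 and 0.957). Among the ligands, Pdgfa was most like Ddr1, F3 and Celsr1 (0.909, 0.907 and 0.902), Vegfa most like Fat1, Tenm3 and B4galnt4 (0.941, 0.923 and 0.918), Pdgfc most like B4galnt4, Cxadr and Gsta4 (0.924, 0.908 and 0.908), and Vegfc most like Pcdh19, Zfp423 and Trim46 (0.853, 0.808 and 0.792). Over the 16 mesenchyme-like clusters, the r of Vegfa with 13 genes of the hypoxia response lay between -0.29 (Higd1a) and 0.40 (Ankrd37).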

How the data were processed

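The deposited values were raw UMI counts per gene and barcode for 1 male and 1 female library, made with Cell Ranger 3.1 on mm10 per the submitters' processing notes; the gene annotation release is not given in the sources used here. Every barcode was listed, so barcodes with at least 2000 UMIs, 500 genes and at most 10% mitochondrial UMIs were kept. The libraries hold 130105692 and 144515562 UMIs, male and female. Cells were scaled to 10000 UMIs and clustered on 1978 variable genes without the VEGF and PDGF genes (30 components, 15 neighbours, Leiden resolution 1; scanpy 1.11.5, python-igraph 0.11.9, scikit-learn 1.9.0, scipy 1.17.1, Python 3.11.15). Scrublet's automatic threshold marked 0% and did not work, so doublets were kept, and 13.8% and 15.0% of cells with the highest scores were removed in an alternative. Class names were rebuilt here from markers, and the members, gene lists and naming rules were chosen with earlier results of these data known. Levels carry exact Poisson intervals, ratios exact conditional ones, shares exact Clopper-Pearson ones; the interval code was tested on simulated data. Named genes are the 10 genes, 17 fixed pathway genes, 13 hypoxia genes and, for each of the 10, the 3 genes with the most similar pattern among those with at least 500 UMIs.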

Additional observations from a re-analysis of the deposited data

Results flagged for a closer look

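Pdgfc differed between the libraries in opposite directions in 2 mesenchyme domains. In the Sim1, Tbx15 and Agtr2 domain it had 66.5 CPM in male and 55.2 CPM in female cells, a log2 ratio of 0.27 (0.12 to 0.42), and in the distal Msx2 domain 26.9 CPM in male and 38.5 CPM in female cells, a log2 ratio of -0.51 (-0.70 to -0.33). Pdgfa was higher in male than in female mesenchyme-like cells, with a log2 ratio of 0.19 (0.09 to 0.30), and lower in male than in female glia and neural crest-like cells, with a log2 ratio of -0.91 (-1.50 to -0.34) on 37 and 90 UMIs. Neither difference between cell groups was tested, since each sex has 1 library.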

How the results depend on the processing

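Kdr, Flt1, Flt4 and Pdgfb in endothelium-like cells and Pdgfa in epithelium-like cells stayed past 4-fold in every alternative that gave a class value. Flt1 in epithelium-like cells did not pass with thinned cells, with a minimum of 100 summed UMIs or at a UMI limit of 1000. Pdgfa in glia and neural crest-like cells passed at a UMI limit of 5000, Pdgfa in skeletal muscle-like cells at a UMI limit of 1000, and Pdgfb in epithelium-like and in glia and neural crest-like cells without a minimum count. Under a mitochondrial limit of 5%, which kept 1225 and 1111 cells, no class value could be had. The count of genes ranging at least 2-fold over domains, 6 of 8, was 2 of 7 over 6 domains at a UMI limit of 5000 and 2 of 6 over 5 domains at a mitochondrial limit of 5%. The count of genes differing between the sexes, 0, became 1 at a mitochondrial limit of 5% (Pdgfa), with the highest doublet scores removed, at Leiden resolution 0.5, with clusters weighted alike and with smooth muscle-like cells counted as mesenchyme (Kdr in these 4, the last chosen after seeing the data), and without a minimum count (Pdgfb). Male co-detection of Pdgfra and Pdgfrb over the product, 1.022, was 0.9431 at a UMI limit of 1000 and 0.9157 at a mitochondrial limit of 5%. Of single values past their fold, 2 changed sign: Pdgfb, male over female in mesenchyme-like cells (17 and 11 UMIs), was -0.27 at a mitochondrial limit of 5% against 0.89, and male Pdgfc in the Ogn domain over the other domains was -0.07 at Leiden resolution 2. Among smaller male over female log2 ratios in mesenchyme-like cells, the mitochondrial limit of 5% also turned Pdgfc (0.23, against -0.10), Vegfc (0.18, against -0.07), Flt1 (0.57, against -0.10) and Pdgfrb (-0.16, against 0.02). Flt1 was also 0.22 at Leiden resolution 0.5 and with smooth muscle-like cells counted as mesenchyme, and Flt4, at -0.03, was 0.09 to 0.73 under 5 alternatives. The cause was not tested. Of the other values, 15 of 144 class ratios, 14 of 52 domain ratios and 13 of 110 sex ratios moved by more than their counting error. No paired analysis was possible because each sex has 1 library. Depth limits Kdr, Flt1, Flt4 and Pdgfb outside endothelium, where few UMIs were counted.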
